A study of Saccharomyces cerevisiae with 72 samples.

Results

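This account follows the transcriptome of budding yeast 60 min after estradiol switched on Yox1-9A, a form of the repressor Yox1 whose phosphorylation sites are replaced by alanine. It rests on 12 of the 72 RNA-seq libraries of the series, chosen by strain, allele and time: 3 libraries each of an inducible and a control strain, at 0 and at 60 min. In the inducible strain (MATa, URA3::Z4pr-yox1-9A-3V5-KanMx), V5-tagged Yox1-9A was driven by the synthetic Z4 promoter, which the estradiol-dependent activator Z3EV, carried at HAP1 under the ACT1 promoter, turns on. In the control strain, URA3::Z4pr-HO, the same activator and promoter drove the HO endonuclease gene, and V5-tagged yox1-9A was kept under its own promoter. Both strains therefore had Z3EV, the phosphosite mutant as their form of Yox1 and the auxotrophies ura3Δ0, his3Δ1 and lypΔ0 with can1Δ::STE2pr-SpHIS5, and each strain is 1 constructed genotype. Cultures grew without synchrony in rich medium with dextrose, and received 1 µM estradiol at 0 min. For comparison the text uses libraries of the same 2 strains at 20 min, and those of a pair of strains that differ from these in carrying wild-type YOX1-3V5, under the Z4 promoter or under its own. The Z4 promoter does not follow the cell cycle as the promoter of YOX1 does. The quantity reported for every gene is the difference of changes, (inducible at 60 min minus inducible at 0 min) minus (control at 60 min minus control at 0 min), on the log2(TPM + 1) scale, where TPM is a library's transcripts of a gene scaled to a fixed total. A gene is said to have fallen or risen where limma's moderated test gave a Benjamini-Hochberg adjusted p under 0.05 over all tested genes and the log2 difference passed 0.58 in size. HO, URA3 and YOX1, the genes of the constructs, were set apart and are in no count.

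Yox1 and its relative Yhp1 are homeodomain proteins that bind beside the MADS-box factor Mcm1 at early cell cycle boxes and hold their target genes off from late G1 until the next M/G1 boundary. Mcm1 also works with the forkhead factor Fkh2 and Ndd1 at the CLB2 cluster of G2/M genes, and in a cells it activates the a-specific mating genes. Cyclin-dependent kinase phosphorylates both repressors. The transcription factor Swi5, itself a product of the CLB2 cluster, acts after these genes in the cycle, at the M/G1 boundary.

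YOX1 RNA was measured first, as a check of the labels. It stood at 24.8, 19.8 and 19.2 TPM in the inducible strain before estradiol and at 620.2, 591 and 652 TPM at 60 min. The control strain, with yox1-9A under its own promoter, had 116, 100.2 and 113 TPM at 0 min and 103, 116 and 140.0 TPM at 60 min. All 3 induced libraries lay above every other library, and the log2 difference was 4.69 ± 0.27 (SE). HO RNA went from 6.03, 4.02 and 4.65 to 395, 346 and 404 TPM in the control strain and from 31.8, 27.5 and 29.7 to 2.44, 2.31 and 2.01 TPM in the inducible strain, so the gene under the Z4 promoter rose in the strain that had it there. These gene values do not tell tagged or mutated from reference YOX1 sequence.

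The 12 libraries were scaled to the same total by construction, and the number of reads behind them is not known, so no counting interval can be given. Over the 36 libraries of the table, 6198 to 6301 genes were above 1 TPM in a library. MFA1 and MFA2, markers of MATa cells, were among the abundant RNAs before estradiol, whereas MF(ALPHA)1, the alpha-factor gene, had at most 0.618 TPM in any of the 12 libraries. The list of alpha-specific genes was not silent as a whole. Its 3 tested genes, of 4, together had 24.4 to 39.1 TPM in the 12 libraries. Library 1 of the inducible strain at 0 min stood apart, with 71 genes more than 1 log2 unit from the mean of its companions and a correlation of 0.986 with its own group across genes. Library 3 of the control strain at 60 min had the highest median level, 5.05 on the log2(TPM + 1) scale against 4.81 and 4.88 in its companions. Counts are therefore given with and without these 2 libraries.

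After 60 min of Yox1-9A, 198 of 6252 genes had fallen, which is 3.17% of the genes tested, and 71 had risen, which is 1.14%. The falls were the larger changes. The log2 difference passed 1 in 120 of the fallen and 26 of the risen genes, passed 2 in 44 and 4, and passed 3 in 17 and 0. For 189 of the 198 fallen genes all 3 induced libraries lay below the 3 libraries of the same strain at 0 min and the 3 of the control strain at 60 min, a pattern that 7.68% of all tested genes showed. For 65 of the 71 risen genes all 3 lay above both, which 17% of all tested genes did. The median over all genes was 0.13, so a typical gene was slightly positive, and with every library shifted to a common median 245 genes fell and 52 rose. Without the 2 libraries that stood apart, 190 fell and 230 rose. Of the genes called with all libraries, 176 of 198 and 63 of 71 kept their call there, so the count of risen genes depends on those libraries. Without library 3 of the control strain at 60 min alone 100 genes rose, without library 1 of the inducible strain at 0 min alone 99, and without library 1 of the control strain at 60 min 54. In bulk RNA, fewer cells of a type or stage and less RNA per cell cannot be told apart.

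**Figure D1:**
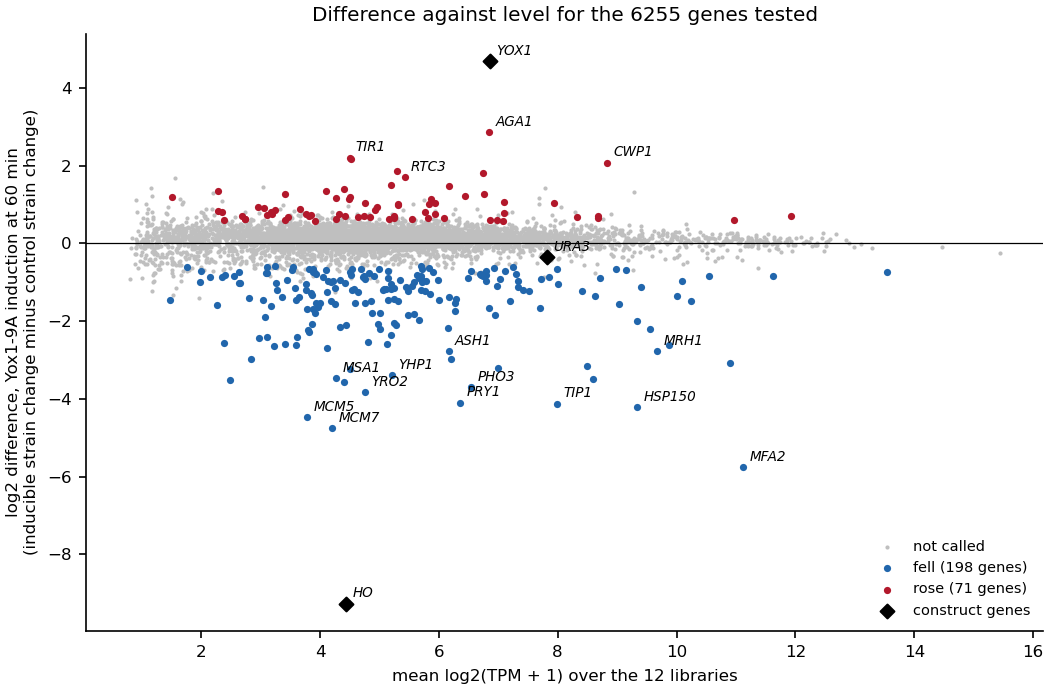
Mean level over the 12 libraries (x axis, log2(TPM + 1)) against the log2 difference of the Yox1-9A induction at 60 min (y axis) for every tested gene, 1 point a gene. Fallen genes, 198 in all, reach down to MFA2 at -5.75, while the 71 risen genes reach up to AGA1 at 2.86.

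The subunits of the replicative helicase Mcm2-7, which is loaded at origins in G1, were among the genes that fell furthest. MCM7 stood at 54.1, 51.7 and 46.8 TPM in the inducible strain at 0 min and at 0.862, 0.931 and 0.623 TPM at 60 min, beside 41.5, 33.4 and 32.9 TPM and 35.3, 30.8 and 33.7 TPM in the control strain. Its log2 difference was -4.74 ± 0.16 (adjusted p 4.91e-19, limma), with all 3 induced libraries below 1 TPM and none near the other 9. MCM5 went from 36.5, 36.3 and 31.6 TPM to 0.778, 0.599 and 0.563 TPM, against 26.7, 21.6 and 23.9 TPM in the control strain at 60 min. MCM3 went from 44.9, 45.8 and 40.3 to 3.29, 2.42 and 2.41 TPM, while the control strain had 35.6, 31.3 and 33.9 TPM at 60 min. The groups did not overlap for either gene, and the log2 differences were -4.46 for MCM5 and -3.56 for MCM3. The other subunits also fell, MCM4 with a log2 difference of -3.23, MCM2 with -2.42 and MCM6 with -2.22. CDC6, the loading factor of the helicase, stood at 25.7, 23.5 and 21.9 TPM before and 3.64, 1.93 and 2.42 TPM after 60 min, and fell with a log2 difference of -2.62 ± 0.24 (adjusted p 1.71e-09, limma). Of 15 tested genes of the pre-replicative complex, 7 fell and none rose, with a list median of -0.39 beside 0.13 over all genes. The 8 that did not pass included ORC1, the large subunit of the origin recognition complex, at 0.19 ± 0.13. The same list had 7 fallen genes in the Yox1-9A induction at 20 min, where 2.16% of all genes fell and 0.16% rose, and 7 in the induction of wild-type Yox1 at 60 min, where 2.37% fell and 0.352% rose. None of the 15 differed by the test between 60 and 20 min, where 0.8% of all genes fell further and 0.336% rose further, or between the alleles, where 0.224% were lower with Yox1-9A and 0% higher. For genes this low the log2(TPM + 1) scale compresses differences. MCM7 stood at 2.07, 2.19 and 2.40 TPM after 60 min of Yox1, above its 3 libraries with Yox1-9A.

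In the R64 reference genome (RefSeq), 50 bases upstream of MCM3 (chrV:86727-86776, plus strand) and of HST4, a sirtuin gene described further on (chrIV:842167-842216, plus strand), show how the letters of a homeodomain core and of an Mcm1 site stand next to each other. The capitals mark TAATTA or CAATTA, read on either strand, and the outer letters of an Mcm1 site with what they enclose, CC, any 6 bases and GG.
MCM3: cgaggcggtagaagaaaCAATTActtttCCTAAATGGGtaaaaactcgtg
HST4: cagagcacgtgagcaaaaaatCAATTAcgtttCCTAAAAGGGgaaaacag
In each stretch 5 bases separate the homeodomain core from the Mcm1 letters. A homeodomain core within 20 bases of such Mcm1 letters was found in the 300 bases around the start, 250 before and 50 after, of 1.58% of 5709 protein-coding genes and of 6.12% of the 196 fallen ones, and in the 500 bases before the start of 3.35% and 11.2%. This distance rule and the 500 base window were chosen after the values were seen, and a match of letters is no evidence of binding.

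Regulators of Start, the commitment to a new cycle in late G1, fell as well. MSA1, a coactivator of the G1/S factors SBF and MBF, went from 44, 36.8 and 30.7 TPM to 2.63, 2.13 and 2.24 TPM, against 27.6, 31.6 and 37.6 TPM in the control strain at 60 min. All 3 induced libraries were below every other one, and the log2 difference was -3.47 ± 0.21. CLN3, the G1 cyclin that opens Start, was at 108, 99.2 and 119 TPM at 0 min and at 42.2, 31.8 and 31.5 TPM at 60 min in the inducible strain, and at 82.7, 93 and 101 TPM in the control strain at 60 min. Its log2 difference was -1.44 ± 0.16 (adjusted p 5.93e-08, limma). Of 12 tested regulators 6 fell, the others being MSA2 (-2.04), SWI4, the DNA-binding subunit of SBF (-1.45), and the G1 cyclin genes CLN1 (-1.29) and CLN2 (-0.79). None rose, and the list median was -0.64. WHI5, the inhibitor of Start, had a log2 difference between -0.12 and 0.15 in the 12 fits with a library left out, and was not called. Without the 2 libraries that stood apart SWI4 (-0.97) and CLN2 (-0.52) did not pass. At 20 min of Yox1-9A 3 of the 12 fell, beside 2.16% of all genes, and with Yox1 at 60 min 5 fell, beside 2.37%.

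Of 23 G1/S genes 9 fell and none rose, with a median of -0.57. CLB6, an S-phase cyclin gene, stood at 21.2, 17.5 and 15.9 TPM before and at 5.21, 5.12 and 5.5 TPM after 60 min of Yox1-9A, with 16.2, 19.9 and 23.4 TPM in the control strain. It fell with a log2 difference of -1.53 ± 0.25. RNR1, the large subunit of ribonucleotide reductase, stood at 139.5, 159.6 and 160.0 TPM and then at 71.9, 68.8 and 64 TPM, against 145, 156 and 149 TPM in the control strain, and the groups did not overlap. Its log2 difference of -1.09 at 60 min compares with -0.33 at 20 min, and the step from 20 to 60 min passed the test (-0.76 ± 0.14, adjusted p 0.00106, limma). The cohesin genes MCD1 (-1.25) and SMC3 (-1.02), the polarity gene GIC2 (-1.22), the cyclin genes PCL1 (-1.46) and PCL2 (-0.93), the sliding clamp gene POL30 (-0.67) and the flap nuclease gene RAD27 (-0.67) made up the rest of the 9. PCL1 passed in 7 of the 12 fits with 1 library left out, and the lowest and highest of its log2 differences there were -1.64 and -1.17. PCL2 passed in 5 of these fits and POL30 in 9. Without the 2 libraries that stood apart PCL1 (-0.97), PCL2 (-0.65) and POL30 (-0.59) missed the threshold. In 21 of the 23 genes all 3 induced libraries were below both comparison groups, a pattern that 7.68% of all tested genes showed. After the shift to a common median 14 of the 23 fell, and 245 of all tested genes did. Of the 8 histone genes tested 0 passed, with a median of -0.37, although all 3 induced libraries were lowest for 8 of the 8. With wild-type Yox1 at 60 min 7 histone genes fell, beside 2.37% of all genes, with a list median of -0.78. The difference between the alleles passed for none of the 8. Core histone genes come in near-identical pairs, and reads shared by a pair may be split or lost in counting.

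Genes of the CLB2 cluster, expressed in G2 and M, fell in 12 of 20 cases with none rising, at a list median of -0.89. DBF2, a kinase of the mitotic exit network, was at 36.1, 26.2 and 26.5 TPM before and 4.65, 3.15 and 3.07 TPM after 60 min, with 23.2, 23.5 and 25.6 TPM in the control strain. The 3 induced libraries were below all others and the log2 difference was -2.68 ± 0.29. HOF1, a cytokinesis gene, went from 13.8, 13.9 and 13 to 2.06, 1.06 and 0.825 TPM, and MYO1, the myosin heavy chain of the contractile ring, from 10.1, 11.3 and 11.2 to 3.38, 2.86 and 3.02 TPM. Their log2 differences were -2.44 and -1.47. SPO12 and BNS1, paralogous activators of the early anaphase release of Cdc14, fell with log2 differences of -2.10 and -2.20, and CDC20, an activator of the anaphase-promoting complex, with -1.54. Cyclin genes changed less: CLB1 had -1.19 and CLB2 -0.85. The NimA-related kinase gene KIN3 (-1.27), IQG1 of the contractile ring (-1.26), AMN1 (-0.93) and MOB1 (-0.63) were the remaining 4, and MOB1 passed in 2 of 12 fits with a library left out. The fits without a library gave MOB1 between -0.73 and -0.50, and that without the 2 libraries that stood apart -0.40, not called. The polo kinase gene CDC5 (0.31 ± 0.25), BUD4 (0.34 ± 0.15) and SWI5 (-0.27 ± 0.25) did not pass. At 20 min 13 of the 20 had fallen, beside 2.16% of all genes, with a median of -1.37. The induction of Yox1 had 6 fallen genes at 60 min, beside 2.37% of all genes, with a median of -0.43. Between 20 and 60 min 2 genes of the cluster rose, CLB2 by 0.73 and the chitin synthase gene CHS2 by 0.59, and the fall of CHS2 at 20 min (-1.08) was followed by -0.49 at 60 min, which missed the fold limit. AMN1 fell further over the same span (-0.77). Of 32 mitotic exit genes 6 fell, SLK19 (-0.68) beside 5 that are also in the cluster, and the median of 0.10 was near that of all genes. No condensin gene of 5 passed.

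DBF2 and MYO1 have the same kinds of letters upstream, shown from the R64 plus strand for DBF2 (chrVII:667929-667978) and MYO1 (chrVIII:151466-151515), with the homeodomain core and the Mcm1 letters in capitals.
DBF2: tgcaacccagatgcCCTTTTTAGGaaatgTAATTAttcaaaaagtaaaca
MYO1: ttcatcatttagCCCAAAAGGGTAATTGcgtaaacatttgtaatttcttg
In DBF2 the Mcm1 letters come first and 5 bases separate them from the core. In MYO1 the 2 directly adjoin.

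Yox1-9A and wild-type Yox1 differed at 60 min in 14 genes, all lower with Yox1-9A, which is 0.224% of those tested, and 0 genes were higher, 0%. At an unadjusted p under 0.05, without a fold limit, limma gave 83 lower and 54 higher genes. These are 137 of 6252, a smaller share than the 0.05 such a limit lets through on average where no gene differs. The 14 were the wall and cell separation genes EGT2, SCW11, DSE1, DSE2, DSE4, CTS1 and PIR1, with AMN1, RME1, a repressor of meiosis, the acid phosphatase gene PHO3, MRH1, PRY3, the acyl-CoA synthetase gene FAA3 and the flavohaemoglobin gene YHB1. EGT2, a glycosylphosphatidylinositol-anchored wall protein of cell separation, was at 190.5, 209 and 206 TPM in the inducible strain at 0 min and at 117, 79 and 75.3 TPM at 60 min, with 207, 230.3 and 206 TPM and 206, 224 and 219.6 TPM in the control strain. In the strain with inducible wild-type Yox1 it went from 196, 202 and 193 to 212, 201 and 187 TPM. The 3 libraries induced for Yox1-9A lay below all of these, and the log2 difference was -1.19 ± 0.15 for Yox1-9A, 0.06 ± 0.15 for Yox1, and -1.25 ± 0.21 for the first minus the second (adjusted p 0.0028, limma).

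SCW11, a glucanase of the daughter wall, went from 253, 246 and 248 TPM to 161, 138 and 133 TPM with Yox1-9A, and from 244, 247 and 244 to 289.6, 284 and 281 TPM with Yox1. Its allele difference was -1.05 ± 0.13 (adjusted p 8.81e-05, limma). DSE4, an endoglucanase that helps mother and daughter part, went from 98, 101 and 103 to 48.2, 31.3 and 29.9 TPM with Yox1-9A and differed between the alleles by -1.20 ± 0.24. CTS1, the chitinase of cell separation, was at 1037, 1068 and 1084 TPM and then 780.4, 817 and 724 TPM with Yox1-9A. Its log2 difference of -0.52 missed the fold limit at 60 min, but its allele difference of -0.81 ± 0.15 passed (adjusted p 0.00956, limma). With inducible Yox1 it went from 999, 1134 and 991 to 1370, 1249 and 1247 TPM, so a higher level with Yox1 is part of that difference. PIR1, a wall glycoprotein, had a log2 difference of -2.0 and an allele difference of -1.47, with 799.8, 923 and 943 TPM before and 236, 224 and 213 TPM after induction of Yox1-9A. With inducible Yox1 it also went down, from 834, 862 and 902 to 515, 522 and 672 TPM. ASH1, the daughter-specific repressor of HO, stood at 112, 113 and 103 TPM and then at 28.3, 12.9 and 12 TPM. Its log2 difference was -2.76 ± 0.30 with Yox1-9A and -1.23 with Yox1, a fall in both, and the difference between alleles of -1.53 ± 0.42 did not pass (adjusted p 0.313, limma). SIC1, the Cdk inhibitor gene that Swi5 activates, was at -0.49 ± 0.22 and not called, and NIS1 at -0.23 ± 0.34. Without the 2 libraries that stood apart, the falls of RME1 (-0.56) and PCL9 (-0.75) with Yox1-9A were no longer called. SWI5 RNA was at 33.8, 24.2 and 23.8 TPM before and 21, 19.6 and 20.6 TPM after 60 min of Yox1-9A.

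MRH1, a membrane protein related to Yro2, had the largest allele difference of the 14, -1.96 ± 0.31, with 1230.3, 1453 and 1475 TPM before and 282, 199 and 169.9 TPM after 60 min of Yox1-9A. In the Yox1 strain it stood at 1290.0, 1158 and 961 and 719, 667 and 559.7 TPM. PHO3 followed at -1.66 ± 0.33, and AMN1, an antagonist of the mitotic exit network made in daughter cells, had -1.12 ± 0.15 (adjusted p 8.81e-05, limma). Leaving out 1 library at a time gave 10 to 22 lower genes and 0 to 1 higher, the 22 without library 1 of the Yox1-9A strain at 60 min. Without the 2 libraries that stood apart 9 were lower and 0 higher, PHO3, DSE4, RME1, DSE2 and YHB1 no longer passing. With single libraries left out in 24 fits, RME1 kept its call in 7, YHB1 in 8, DSE2 in 11 and PRY3 in 19. After the shift to a common median PRY3, FAA3, CTS1, DSE4, DSE2 and YHB1 did not pass. The induced level of YOX1 RNA was itself lower with the mutant: 620.2, 591 and 652 TPM against 726, 1188 and 1223 TPM at 60 min, and its part in these differences was not tested. These data give RNA and not the amount of protein. The 2 inductions share no library. With Yox1-9A 198 genes fell and with Yox1 148, 131 of them in both sets, 66.2% of the first and 88.5% of the second, and of the 71 and 22 that rose 19 were in both, 26.8% and 86.4%.

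**Figure D2:**
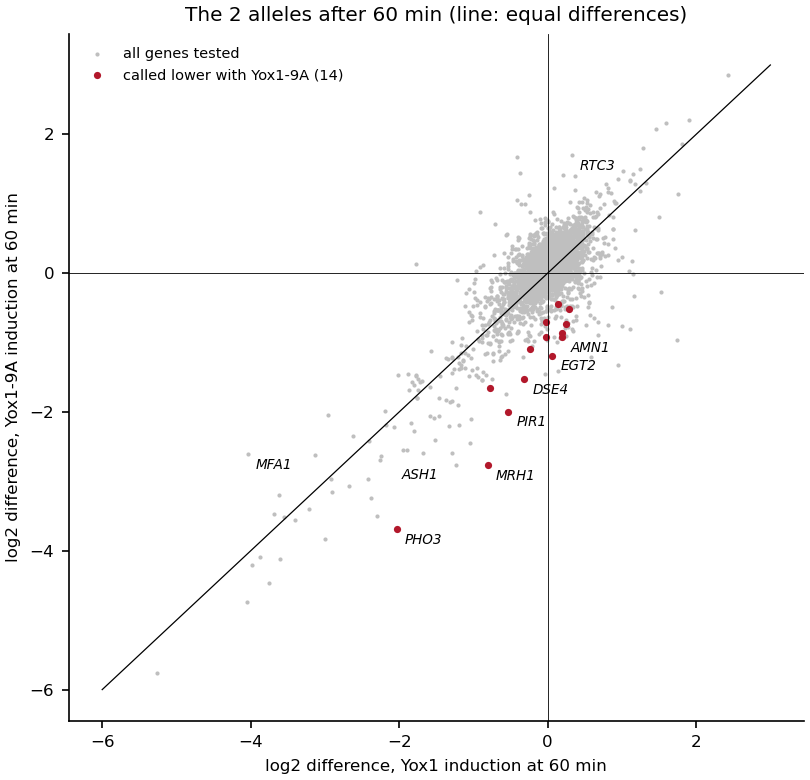
Log2 difference of the Yox1 induction (x axis) against that of the Yox1-9A induction (y axis) at 60 min, 1 point a gene, with the 14 genes that differ between alleles in red. EGT2 lies at 0.06 and -1.19 and MRH1 at -0.81 and -2.76, both under the diagonal, whereas MCM7 lies at -4.05 and -4.74.

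**Figure D3:**
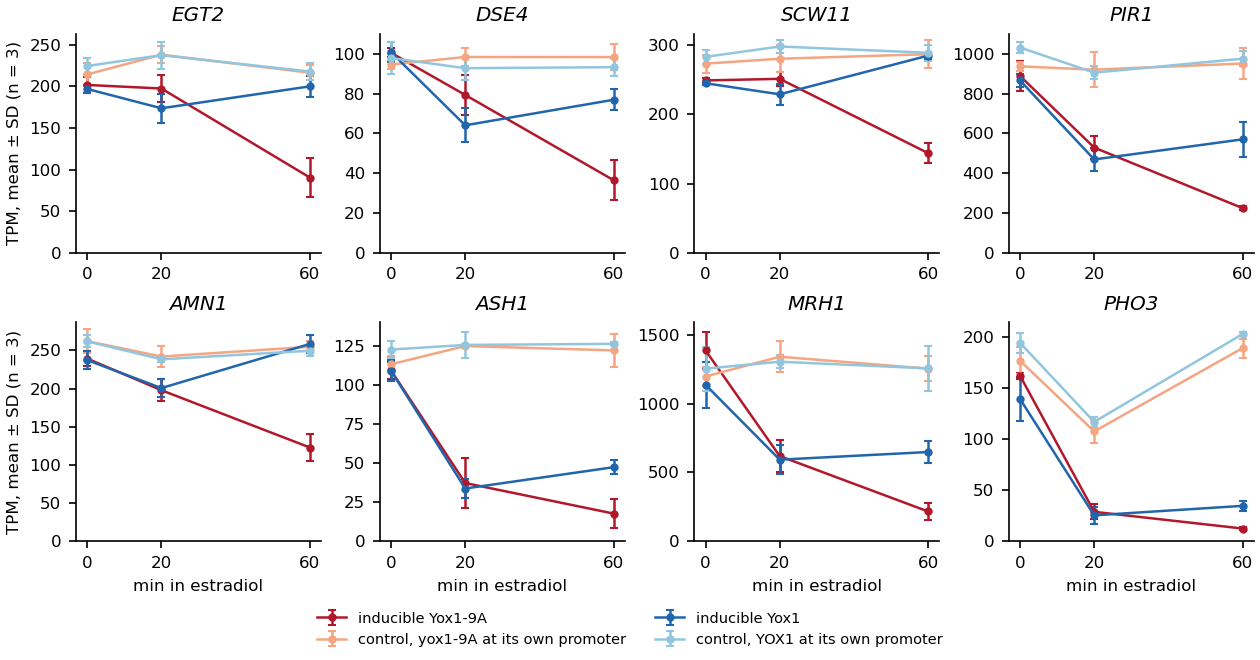
TPM at 0, 20 and 60 min of estradiol (x axis) for ASH1 and 7 of the genes lower with Yox1-9A, as means with SD bars over 3 libraries, in the inducible and control strains of both alleles. EGT2 stands at 117, 79 and 75.3 TPM after 60 min of Yox1-9A and at 212, 201 and 187 TPM after 60 min of Yox1.

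Mating genes moved in both directions. The 2 genes of the pheromone a-factor fell, MFA2 from 4287, 6172 and 6961 TPM to 182, 134 and 92.6 TPM and MFA1 from 1236, 1512 and 1301 TPM to 288, 199 and 176 TPM. In the control strain MFA2 was at 7519, 5715 and 6245 TPM and MFA1 at 1836, 1715 and 1303 TPM at 60 min. The log2 difference of MFA2, -5.75 ± 0.27 (adjusted p 1.37e-15, limma), was the lowest of all genes but HO, and that of MFA1 was -2.61 ± 0.23. STE6, the transporter that exports a-factor, went from 72.6, 68 and 58.1 to 21.8, 16.7 and 16.9 TPM with a log2 difference of -1.82. ASG7 (-1.04) and STE2, the alpha-factor receptor gene (-0.66), also fell. AGA2, the binding subunit of a-agglutinin, and BAR1, a secreted protease that cleaves alpha-factor, did not pass at 60 min, with 0.08 ± 0.21 and 0.17 ± 0.18. So 5 of 7 a-specific genes fell at 60 min (median -1.04), 7 of 7 at 20 min (median -1.36) and 4 of 7 with Yox1 at 60 min (median -1.09). Of all genes 3.17%, 2.16% and 2.37% fell there. Between 20 and 60 min, STE2 (0.69), BAR1 (0.95) and AGA2 (1.02) rose and MFA1 (-1.31) and MFA2 (-1.18) fell. The fall of MFA1 was -4.04 with Yox1, and its allele difference of 1.43 ± 0.32 did not pass (adjusted p 0.0589, limma).

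Upstream of MFA1 (chrIV:1384926-1384975, plus strand, R64) and STE6 (chrXI:46476-46525, minus strand), the homeodomain letters run directly into the Mcm1 letters.
MFA1: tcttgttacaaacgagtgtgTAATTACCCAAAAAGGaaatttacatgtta
STE6: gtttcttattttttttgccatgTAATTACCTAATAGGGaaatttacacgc
In both the last base of TAATTA is followed at once by the CC of the Mcm1 letters. In the 500 bases before the start, a homeodomain core lay within 20 bases of Mcm1 letters for 6 of the 7 a-specific genes. The share was 3.35% over all 5709 protein-coding genes. Since 5 of the 7 fell at 60 min, not every a-specific gene with these letters fell.

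Genes that pheromone is known to induce through the factor Ste12 held 12 of the 71 risen genes. Of all tested genes 1.14% rose, and the list was chosen with earlier results of these data known. AGA1, the anchor subunit of a-agglutinin, stood at 48.9, 46.4 and 46.2 TPM before estradiol and at 480.2, 463 and 506 TPM at 60 min, against 69.1, 85.8 and 66 TPM and 84.7, 117 and 106 TPM in the control strain. Its 3 induced libraries lay above every other, and the log2 difference was 2.86 ± 0.19 (adjusted p 5.23e-12, limma). FUS1, a membrane protein of cell fusion, went from 13.6, 8.93 and 9.14 to 49.2, 46.6 and 55.2 TPM, with 19.1, 20.6 and 22.7 TPM and 14.8, 20.8 and 29.4 TPM in the control strain. KAR4, a partner of Ste12, went from 32.3, 21.4 and 22.1 to 70.6, 62.2 and 67.1 TPM, and FUS3, the mitogen-activated kinase of the pathway, from 62.9, 38.8 and 31.8 to 119, 117 and 131 TPM. The groups did not overlap for any of these, with log2 differences of 2.16, 1.49 and 1.47. Rises were also called for PRM1 (1.34), the feedback regulator SST2 (1.28), FIG1 (1.19), FIG2 (1.15), PRM4 (1.00), PRM8 (0.93), KAR5 (0.88) and STE12 itself (0.80), which passed in 2 of 12 fits with a library left out. In all 12 of 20 tested pheromone-induced genes rose and 2 fell, with a median of 0.90. The 2 were FAR1, the inhibitor of G1 cyclins in mating (-2.06), and GPA1, the G protein subunit that restrains the pathway (-0.94, and -0.76 without the 2 libraries that stood apart, not called). FAR1 was at 45.6, 39.4 and 37 TPM at 0 min and at 10.8, 8.44 and 8.26 TPM at 60 min. None of the 20 rose at 20 min and 8 rose between 20 and 60 min, beside 0.336% of all genes. Among the 8 were AGA1 by 2.35 ± 0.19, FUS1 by 1.61, a call kept in 6 of 12 fits with a library left out, and PRM1 by 1.24. With Yox1 at 60 min 8 rose and 1 fell, beside 0.352% and 2.37% of all genes, and the allele difference passed for none. FUS3, STE12 and GPA1 belong to the pathway's own machinery but, being induced by pheromone, were counted in that list. None of the 10 further genes of the signalling cascade, STE4, STE18, STE5, STE20, STE50, STE11, STE7, KSS1, DIG1 and DIG2, passed at 60 min, with a median of 0.24.

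The stretches upstream of 5 risen genes are shown because the Ste12 letters TGAAACA, or their complement TGTTTCA, stand in each of them, in capitals. They lie at chrXIV:703479-703528 (AGA1), chrIII:71603-71662 (FUS1), chrIII:27769-27848 (KAR4), chrXIV:110727-110776 (PRM1) and chrII:192271-192320 (FUS3), all on the plus strand of R64.
AGA1: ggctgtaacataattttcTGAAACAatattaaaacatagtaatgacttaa
FUS1: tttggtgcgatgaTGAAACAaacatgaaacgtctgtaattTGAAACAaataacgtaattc
KAR4: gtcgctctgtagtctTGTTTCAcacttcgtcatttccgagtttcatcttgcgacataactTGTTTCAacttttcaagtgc
PRM1: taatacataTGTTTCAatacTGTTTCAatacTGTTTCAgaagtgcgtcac
FUS3: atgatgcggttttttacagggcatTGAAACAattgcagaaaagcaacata
PRM1 shows 3 copies in 50 bases. TGAAACA stands within 500 bases before the start of 70% of the 20 pheromone-induced genes, of 22.9% of the risen, 13.8% of the fallen and 11.7% of all 5709 protein-coding genes. It also stands before 100% of the 7 a-specific genes, of which 5 fell and none rose.

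**Figure D4:**
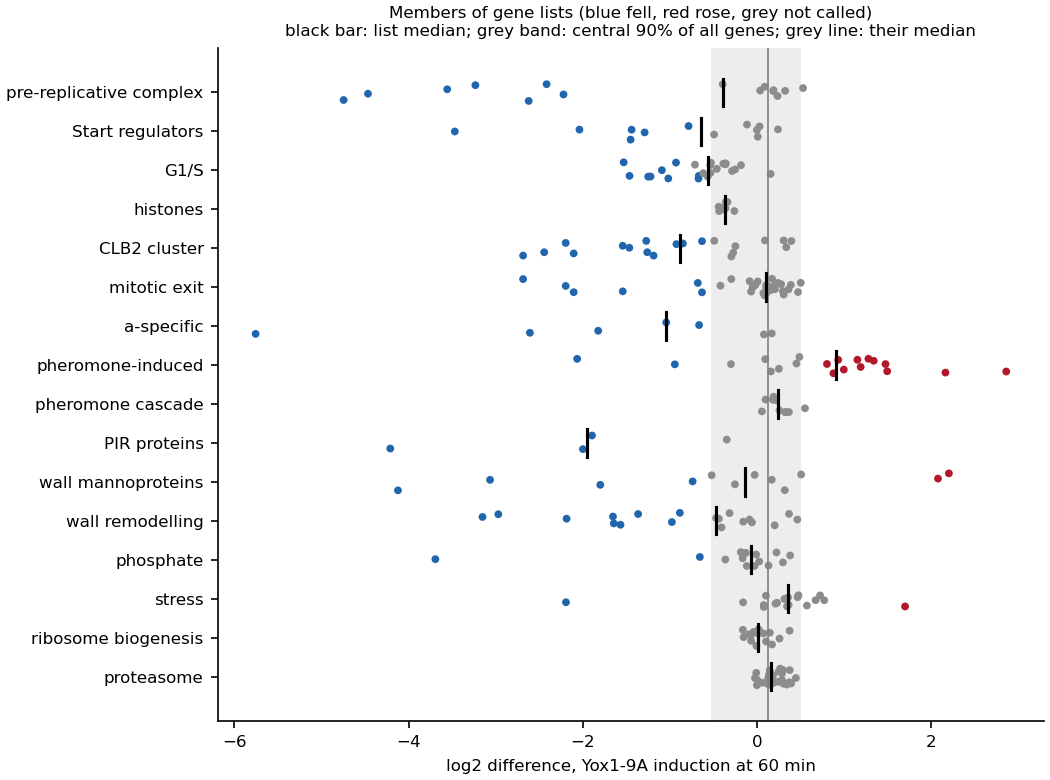
Log2 difference at 60 min of Yox1-9A (x axis) for each member of 16 gene lists (y axis), 1 point a gene, with the list median as a black bar and the central part of all genes as a grey band. Pheromone-induced genes have a median of 0.90, the CLB2 cluster -0.89, and the proteasome genes 0.16.

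Genes of the cell wall and of secreted proteins were among those that fell furthest. HSP150, a wall glycoprotein with internal repeats, went from 1107, 1254 and 1284 TPM to 112, 63.3 and 58.9 TPM, with 1376, 1529.9 and 1579.9 TPM in the control strain. TIP1, a mannoprotein, went from 572, 555 and 563 to 40.7, 31.1 and 31.3 TPM, and its level at 20 min was 184, 113 and 143 TPM. Their log2 differences were -4.21 ± 0.28 and -4.12 ± 0.26, and for both the 3 induced libraries were the lowest. PRY1, which encodes a secreted sterol-binding protein, went from 122, 193 and 190.3 to 19.4, 16.3 and 16.8 TPM in the inducible strain and from 110.3, 73.3 and 82 to 214, 153 and 139.5 TPM in the control strain. Its difference of -4.09 ± 0.25 combines the fall in one strain with a rise in the other (0.92, passing). Of the PIR proteins 3 of 4 fell (median -1.95), of the mannoproteins 4 of 12 fell and 2 rose, and of 19 remodelling enzymes and regulators 9 fell and none rose (median -0.47). Of all tested genes 3.17% fell and 1.14% rose. With Yox1 at 60 min 2, 3 and 8 members of these lists fell and 2 mannoprotein genes rose, beside 2.37% and 0.352% of all genes. At 20 min of Yox1-9A 3, 3 and 7 fell and 1 mannoprotein gene rose, beside 2.16% and 0.16%. SED1, a major structural mannoprotein (-3.06), the chitin transglycosylase genes UTR2 (-3.15) and CRH1 (-1.65), YGP1 (-2.97), PST1 (-2.19), SPI1 (-1.80), SCW10 (-1.57) and the glucanosyltransferase gene GAS1 (-0.98) were among the fallen. CWP2 (-0.74) passed in 5 of 12 fits with a library left out.

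Against this direction, the mannoprotein genes TIR1 and CWP1 rose. TIR1 was at 9.2, 7.86 and 10.9 TPM and then 38.7, 40.2 and 40 TPM in the inducible strain, and at 18, 34.9 and 27.9 and 16.6, 26.6 and 24.8 TPM in the control strain. CWP1 was at 195, 244 and 292 and 937, 1121 and 995 TPM in the inducible strain and at 326, 461 and 483 and 366, 485 and 405 TPM in the control strain. In both genes the inducible strain began lower, by -1.40 and -0.79 at 0 min, called in each, and at 60 min it was higher by 0.80 and 1.29. The differences of 2.20 and 2.08 hold both steps. The same applies to AGA1, which began -0.62 apart and ended at 2.24, and, in the other direction, to YRO2 (1.14 and -2.69), ELO1 (1.14 and -2.06) and PIG1 (0.88 and -2.62). At 0 min 7 genes were lower and 11 higher in the inducible strain, 0.112% and 0.176% of those tested, and 9 of the 198 fallen and 4 of the 71 risen genes were among them. Counted at any size, 149 of the 198 fallen genes began higher in the inducible strain and 59 of the 71 risen genes began lower. The median 0 min difference over all genes was -0.05. The reported differences include these gaps at 0 min. At 60 min alone 219 genes were lower than in the control strain, 3.5% of those tested, and 100 higher, 1.6%. Of the 198 and 71 genes 174 and 50 passed there as well. In the inducible strain alone, 281 genes fell and 572 rose from 0 to 60 min, 4.49% and 9.15%, and in the control strain 75 fell and 155 rose, 1.2% and 2.48%. Unsubtracted, 175 of the 198 and 61 of the 71 passed.

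**Figure D5:**
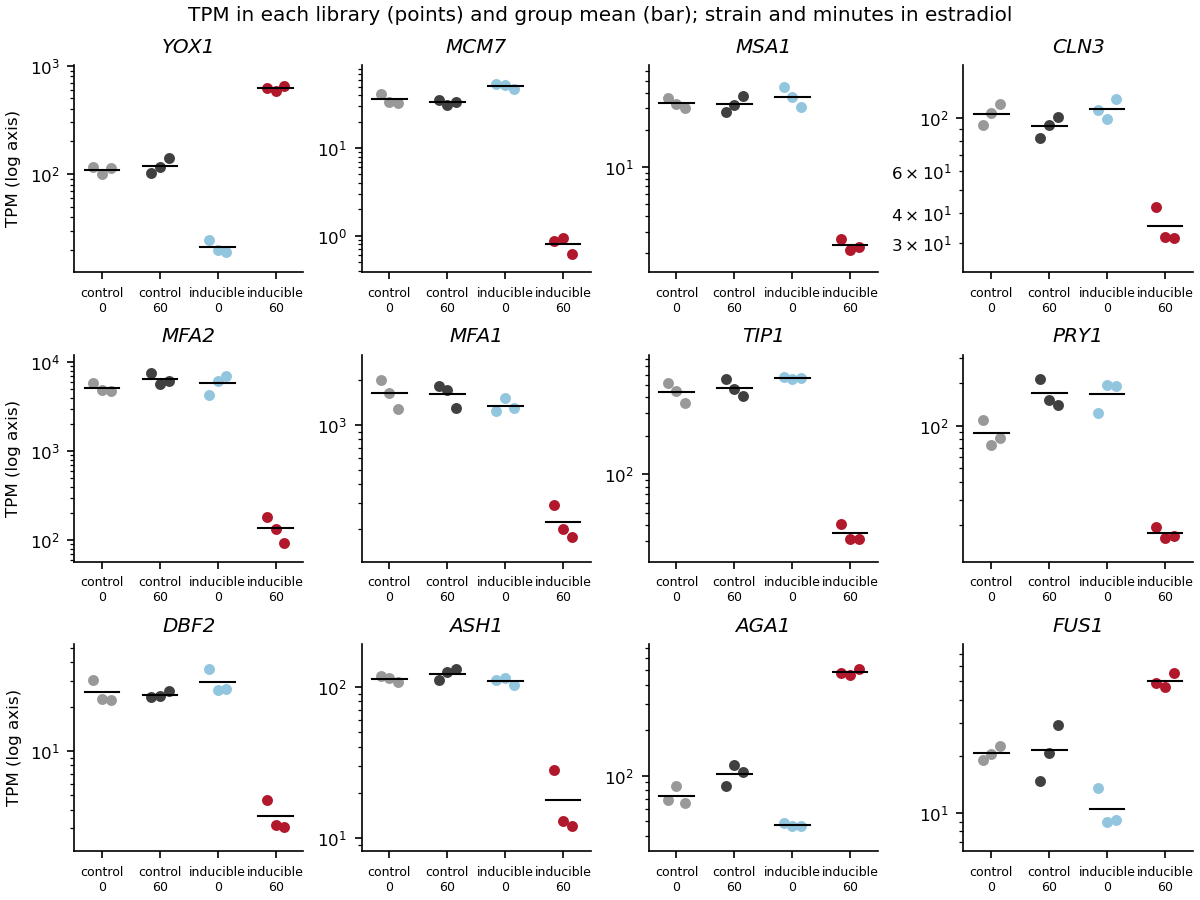
TPM in each of the 12 libraries (y axis, log scale) for 12 genes, by strain and time (x axis), 1 point a library. MCM7 falls from 54.1, 51.7 and 46.8 to 0.862, 0.931 and 0.623 TPM in the inducible strain, and AGA1 goes from 48.9, 46.4 and 46.2 to 480.2, 463 and 506 TPM.

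Several fallen genes act in metabolism and transport, without their pathways following. PHO3, a constitutive acid phosphatase, went from 163, 165 and 159.6 to 14.2, 11.8 and 11.8 TPM, a log2 difference of -3.69 ± 0.23, and its neighbour PHO5 fell by 0.66, but the other 12 of 14 phosphate genes did not pass. ELO1, a fatty acid elongase, was at 250.4, 286 and 299.5 and then 52.4, 39 and 34.2 TPM in the inducible strain and at 160.3, 189 and 176 TPM in the control strain at 60 min. It had a log2 difference of -3.20 and fell together with FAA3 (-1.09), of 11 genes of fatty acid metabolism. PIG1, a phosphatase targeting subunit of glycogen metabolism, fell by 3.51, the glycogen synthase gene GSY2 also fell (-0.83), while GLG2, a glycogen initiator, rose by 0.72, of 18 genes of glycogen and trehalose. In GSY2 the subtraction decides the direction, since the inducible strain alone gave 0.73 and the control strain 1.57. Of 17 amino acid and polyamine transport genes 3 fell, the polyamine exporter genes TPO3 (-2.59) and TPO1 (-0.98) and the permease gene TAT1 (-0.79). In that list 1 gene rose, ALP1, which did not pass after the shift to a common median (0.57). Of 11 hexose transport genes 1 fell, the glucose sensor gene RGT2 (-1.33), and 0 rose. Of all tested genes 3.17% fell and 1.14% rose. FRE4, a ferric reductase, rose by 1.87 ± 0.25, and 15 of the 16 iron and copper genes did not pass. FRE4 was at 35.6, 42 and 42.1 and 45.9, 48.8 and 49.3 TPM in the inducible strain but at 50.2, 72.2 and 55.9 and 20.1, 22.8 and 14.2 TPM in the control strain, where it fell.

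Regulators outside these groups also changed. YHP1, the gene of the second repressor, went from 101, 61.9 and 52 to 10.3, 6.82 and 6.5 TPM with a log2 difference of -3.39 ± 0.40, and was at 67.8, 52.8 and 67.3 TPM in the control strain. The other 5 genes of the Mcm1 and forkhead partners did not pass. HST4, a sirtuin that acts on histone H3, went from 15.6, 11.8 and 12.7 to 0.813, 0.557 and 0.589 TPM and fell by 2.97. HST2 fell by 0.82, and HST3 was at 0.09 ± 0.33. Bud site genes BUD9 (-1.13), AXL2 (-0.94) and RAX2 (-0.84) fell of 11, beside 3.17% of all tested genes. Risen genes with other roles included SLT2, the kinase of the cell wall integrity pathway (1.14 ± 0.23), GPD1 and GPP2 of glycerol synthesis (1.03 and 1.05), the cytochrome c isoform gene CYC7 (1.40), the butanediol dehydrogenase gene BDH1 (1.22), GUP2 (1.36), KNH1 (1.28) and NFG1 (1.80). CYC7 passed in 8 of 12 fits with a library left out and BDH1 in 5 of 12. BDH1 (1.19) also did not pass without the 2 libraries that stood apart. RTC3 rose by 1.70 with Yox1-9A, at 14.2, 17.4 and 18.9 TPM before and 142, 154 and 149 TPM after, and also rose in the control strain (1.37). Of 18 stress genes RTC3 rose and HOR7 fell (-2.19), with a median of 0.35, whereas unsubtracted 13 rose in the inducible strain and 8 in the control strain.

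Large groups of genes with housekeeping roles stayed near the median of all genes. Among 138 ribosomal protein genes 1 passed, RPL22B (0.70), and the median was 0.07. Ribosome biogenesis (15 genes, median 0.01), proteasome (32, median 0.16), respiration (16, median 0.02) and ergosterol synthesis (20, median 0.20) had no call in either direction. Amino acid synthesis had 1 call of 27, ARG4 (0.58), which was at -0.05 before the control strain was subtracted. Alpha-specific genes (3 tested) and meiotic genes (8 tested) had none.

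The difference between 60 and 20 min of Yox1-9A uses no 0 min library, since these cancel. By this measure 50 genes fell further, 0.8% of those tested, and 21 rose further, 0.336%. With a library left out the 21 became 10 to 33, the 10 without library 1 of the control strain at 60 min and the 33 without library 1 of the inducible strain at 20 min. That last library had 110 genes more than 1 log2 unit from the mean of its companions, the most of the 36. TIP1 had the largest drop, -3.04 ± 0.26 (adjusted p 1.33e-08, limma), followed by PHO3 (-1.93), ELO1 (-1.66), PRY1 (-1.53) and YRO2 (-1.44). The control strain moved the other way in the first 2, TIP1 from 336, 208 and 188 to 558, 465 and 407 TPM and PHO3 from 111, 95.7 and 117 to 179, 192 and 197 TPM. In the inducible strain TIP1 went from 184, 113 and 143 to 40.7, 31.1 and 31.3 TPM and PHO3 from 33.1, 20.6 and 33.3 to 14.2, 11.8 and 11.8 TPM, so the differences combine both strains. AGA1 rose furthest, and RTC3 (1.72), FUS1, TIR1 (1.43) and PRM1 followed, and TIR1 kept its call in 3 of 12 fits with a library left out. The median over all genes was 0.06. EGT2 had been at 194, 183 and 215 TPM at 20 min, near its 0 min values, and its difference from 20 to 60 min was -1.01 ± 0.15. No helicase gene was called, and MCM7 was at 1.73, 1.25 and 1.06 TPM at 20 min, a level at which log2(TPM + 1) compresses differences. The 20 and 60 min inductions share their 0 min libraries, so their values are given side by side only.

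Fallen genes lay next to each other on the chromosomes. Of 196 fallen protein-coding genes 66, or 33.7%, had an immediate neighbour that also fell, beside 6.62% of all 5709 protein-coding genes and 5.71% of the 70 risen ones. The 36 neighbouring pairs were divergent in 19 cases, tandem in 15 and convergent in 2. The shares of these orientations among all neighbouring genes were not computed, so the counts show no preference for any of them. PIG1 and MCM5 point away from each other across 525 bases of chromosome XII and had log2 differences of -3.51 and -4.46. ELO1 and CDC6 share 555 bases of chromosome X (-3.20 and -2.62), and EIS1 and HOF1 554 bases of chromosome XIII (-2.27 and -2.44). TPO3 and TDA6 (-2.59 and -2.55), PIR1 and PIR3 (-2.0 and -1.89), YHP1 and PPN1 (-3.39 and -0.80) and IAH1 and RGA1 (-2.55 and -1.15) were divergent too, and PRY1 with PRY3 (-4.09 and -1.66) tandem. Whether strand was used in counting is not stated in the sources, so reads of overlapping or antisense transcripts cannot be told apart. In the annotation 1 of the 196 fallen genes overlaps a neighbour. YNL146C-A (-2.64) and YNL146W (-1.80), which lie beside MFA2, are annotated 134 bases apart.

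Over 500 bases before the start, the Mcm1 letters, CC and GG around any 6 bases, stood upstream of 69.9% of fallen, 51.4% of risen and 49.2% of all protein-coding genes. The letters ACGCGT, the core of the MBF site of G1/S genes, stood upstream of 18.4% of the fallen, 2.86% of the risen and 5.52% of all. A homeodomain core alone, TAATTA or CAATTA, was common everywhere, at 57.1%, 55.7% and 50.7%. GTAAACA, a forkhead site, stood upstream of 13.8% of the fallen, 18.6% of the risen and 10.5% of all, and CACGAAA, an SBF site, upstream of 11.7%, 5.71% and 7.18%. AGGGG, the core of the stress element, was at 36.7%, 50% and 34.5%. All were read on both strands.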

How the data were processed

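RNA-seq of asynchronous Saccharomyces cerevisiae cultures was used, in 12 libraries of 4 groups of 3, with the libraries of 20 min and of wild-type YOX1 for comparison. The submitters call the 3 of a group biological replicates. The sources differ on whether polyadenylated RNA was selected or removed. According to the submitters' processing notes and the study's methods, the authors aligned reads with STAR 2.5.3a to R64, counted fragments over exons with featureCounts 1.5.2 and deposited TPM per gene. How counts became TPM and whether strand was used are not stated in the labels or methods. TPM keep no depth, so no read number is known. The table held 6857 genes, of which 5935 IDs matched the R64 annotation. No other per-sample column was left unused (0 columns). The table of the Yhp1 strains was not used here.

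Values were taken to log2(TPM + 1). A gene was kept where its average across all 36 libraries reached 1 TPM. The 36 libraries, in 12 groups, entered 1 fit in limma 3.58.1 (R 4.3.3), with a variance trend, no covariates and Benjamini-Hochberg adjustment over all genes kept. A call needed an adjusted p under 0.05 and a log2 difference past 0.58. The 3 construct genes are in no count, which leaves 6252. SE is limma's. The fit was tested on simulated data.

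Genes named are the 30 lowest and 20 highest called genes whose 3 induced libraries lay beyond both comparison groups, the members of the gene lists, and the 5 furthest in each direction from 20 to 60 min and between alleles. EIS1, PPN1, RGA1, YNL146W, GPD1, GPP2 and the genes that complete the 14 lower with Yox1-9A were named after their values were seen. A gene list and the motif searched for it are not reported here. The members and lists were chosen with earlier results of these data known. Sequences come from the RefSeq R64 genome, and starts are those of the annotated genes. Alternatives covered pseudocount, filter, scaling, a replicate block, the libraries fitted, the variance model, no subtraction, 60 min alone and each library left out. Leaving out both libraries that stood apart was added after seeing the data.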

Additional observations from a re-analysis of the deposited data

Results flagged for a closer look

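Effects of the same kind of induction that differed between alleles or between times, by a test of the difference itself (limma, adjusted p under 0.05 and log2 difference past 0.58), are given as values. Between the alleles, Yox1-9A minus Yox1 at 60 min, they were -1.96 for MRH1, -1.66 for PHO3, -1.47 for PIR1, -1.25 for EGT2 and -1.20 for DSE4. Smaller differences were -1.12 for AMN1, -1.05 for SCW11, -0.99 for RME1, -0.90 for DSE1 and -0.88 for PRY3. FAA3 at -0.86, CTS1 at -0.81, DSE2 at -0.67 and YHB1 at -0.59 completed the 14. For PHO3, MRH1 and PRY3 both alleles lowered the gene, with -2.03, -0.81 and -0.78 for Yox1, so the difference is one of size. Means also went down with inducible Yox1 for PIR1 (866 to 570 TPM), DSE4 (101 to 76.9 TPM) and FAA3 (53.3 to 43.9 TPM). Its control strain went from 1031 to 975, from 97.8 to 93.3 and from 55.2 to 53.6 TPM. In the inducible Yox1 strain the mean of CTS1 went up from 1041 to 1289 TPM. That of RME1 went from 69.6 to 101 TPM there, and from 65.1 to 79.2 TPM in its control strain. SCW11 went from 245 to 285 TPM in the inducible Yox1 strain and from 283 to 289 TPM in its control strain. AMN1 went from 237 to 258 and from 262 to 250 TPM in these strains, and YHB1 from 1727 to 1797 and from 1774 to 1671 TPM. For each of these genes a higher level with Yox1 is part of the difference. For YHB1 the adjusted p was 0.0373 in limma and the log2 difference lay at the fold limit. Its call was lost in 16 of 24 fits with a library left out, that of RME1 in 17, of DSE2 in 13 and of PRY3 in 5. Without the 2 libraries that stood apart PHO3, DSE4, RME1, DSE2 and YHB1 lost theirs, and after the shift to a common median PRY3, FAA3, CTS1, DSE4, DSE2 and YHB1.

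Between 20 and 60 min of Yox1-9A, the 5 differences furthest down were -3.04 for TIP1, -1.93 for PHO3, -1.66 for ELO1, -1.53 for PRY1 and -1.44 for YRO2. The 5 furthest up were 2.35 for AGA1, 1.72 for RTC3, 1.61 for FUS1, 1.43 for TIR1 and 1.24 for PRM1. TIR1 had the weakest of these, with an adjusted p of 0.0378 in limma. Its call was lost in 9 of 12 fits with a library left out, and also with a pseudocount of 5 TPM, with a common median, with quantile scaling and without the 2 libraries that stood apart. FUS1 lost its call in 6 of the 12. Groups of 3 are too small for the gap test of a single outlying value, which was not run.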

How the results depend on the processing

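Of 2845 values of 119 named genes under the alternatives, 2741 kept direction and call, 102 lost the call and 2 changed sign, and 94 genes kept their call throughout. The 2 were GSY2 at 0.73 and ARG4 at -0.045 without the subtraction of the control strain, where the alternative itself leaves that strain out. Without subtraction 572 genes rose, and without both libraries that stood apart 230 rose at 60 min and 9 were lower with Yox1-9A than Yox1, of which the cause was not tested. Only the libraries of the contrast gave 13 genes that rose from 20 to 60 min, and a mean of at least 10 TPM gave 1 gene higher with Yox1-9A. With each library left out in turn, 181 to 207 genes fell and 54 to 100 rose at 60 min, 37 to 55 fell and 10 to 33 rose from 20 to 60 min, and 10 to 22 were lower and 0 to 1 higher with Yox1-9A. The 10 that rose came without library 1 of the control strain at 60 min and the 33 without library 1 of the inducible strain at 20 min. Quantile scaling gave 239 fallen and 65 risen genes. Calls were lost most often for CWP2, STE12, MOB1, BDH1, ARG4 and PCL2 at 60 min, for TIR1 and FUS1 from 20 to 60 min, and for YHB1, RME1 and DSE2 between alleles. Of 1558 counts over the gene lists 84 moved by more than 1.5 times.

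With the replicate number as a block 206 genes fell and 99 rose. Deviations of same-numbered libraries correlated above 0.1 in 13 of 18 comparisons (-0.48 to 0.45), and those of differently numbered ones in 6 of 36. All 3 same-numbered pairs passed 0.1 in 3 of the 6 pairings of groups, and 8 of 12 libraries were on average closest to their own number. This is a hint of shared sets from the data, but not every pair passed and no label ties the numbers to a batch, so the numbers were not taken to pair the libraries. With 3 libraries a group and no known depth, changes of genes near 1 TPM are the least certain.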
